A study of Mus musculus with 12 samples.

Results

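Biliary and epithelial keratin genes were followed in 2 mouse liver cell lines, Hepa 1-6 and AML12, as a set of 8 named genes. These were the keratin genes Krt7, Krt8, Krt18 and Krt19, the transcription factor gene Sox9, the secreted matrix protein gene Spp1 and the surface protein genes Epcam and Cd24a. Rows of the deposited table were taken where the platform annotation gave one of these symbols, and rows of a gene were averaged. This gave 21 array features for 7 of the 8 genes, out of 16549 genes tested, and Spp1 was not analysed here. The features were 13 for Sox9, 2 each for Krt7 and Krt8, and 1 each for Krt18, Krt19, Epcam and Cd24a.

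The 6 groups held 2 arrays each, described by the series as biological replicates. In each line, cells received 200 ng/mL ovine pituitary prolactin or 10 µg/mL actinomycin D, an inhibitor of transcription, for 8 h, or stayed in serum-free medium as controls. All groups had been kept overnight without serum and additives. Before that, both lines grew in medium with serum, and only AML12 also received dexamethasone and insulin. Hepa 1-6 is an established mouse hepatoma line, and AML12 is a hepatocyte line from mice carrying a TGF-alpha transgene, although the labels give hepatoma as the source of both. Each sample was labelled with Cy5 and hybridised against Cy3-labelled RNA pooled from 11 mouse cell lines. A level is therefore a log2 ratio to that pool, where 0 means as much as in the pool, and levels are compared within a gene only.

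Simple epithelia build their intermediate filaments from pairs of a type II keratin, such as keratins 7 and 8, and a type I keratin, such as keratins 18 and 19. Hepatocytes carry keratins 8 and 18 alone, whereas bile duct cells add keratins 7 and 19. Sox9 marks bile duct cells and liver progenitors, and EpCAM and CD24 are surface proteins of biliary and progenitor epithelium. The line labels were set beside 22 hepatocyte markers, of which 4 were higher and 12 lower in Hepa 1-6 controls than in AML12 controls. Over all genes, 32.1% were higher and 29.8% lower. The median level of the markers was 0.48 and 0.35 on the Hepa 1-6 control arrays and 2.64 and 2.30 on the AML12 control arrays. The 3 with the largest deficit in Hepa 1-6 were Apoh, Hp and Ahsg, genes of secreted liver proteins, with log2 differences of -7.16, -6.33 and -5.04. The 3 with the largest excess were Apoa2, Asgr2 and Ass1, with 3.74, 2.65 and 0.47. The albumin gene Alb stood at 4.25 and 4.35 on Hepa 1-6 control arrays and at 4.35 and 4.12 on AML12 control arrays, and Hnf4a, which encodes a hepatocyte transcription factor, at 3.27 and 3.65 in Hepa 1-6 controls and 3.78 and 3.47 in AML12 controls. Of 11 leukocyte markers, the median was -1.52 and -1.50 on Hepa 1-6 control arrays and -1.44 and -0.94 on AML12 control arrays. They ranged from Ptprc, at -8.07 in Hepa 1-6 controls and -5.50 in AML12 controls, up to C1qb at 0.55 in Hepa 1-6 controls and Cd14 at 0.72 in AML12 controls. Between 37397 and 40281 of 45018 features held a ratio on each array, and replicate arrays correlated at 0.975 to 0.985 across genes.

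Promoter sequences were available for 5 of the 8 named genes, and not for Krt19, Sox9 or Cd24a. Those of the keratin genes of chromosome 15 and of Epcam are shown. These genes differed between the lines in both directions and did not respond alike to actinomycin D. Krt8 and Krt18 are close neighbours in the mouse RefSeq annotation, with 2 annotated genes and 0 protein-coding genes between their start positions. The windows run from 250 bases before to 50 bases after the annotated start, from RefSeq, build GRCm38.p6. They are chr15:101412153-101412452 on the plus strand for Krt7, chr15:102004293-102004592 on the minus strand for Krt8, chr15:102027966-102028265 on the plus strand for Krt18 and chr17:87635729-87636028 on the plus strand for Epcam. Capitals mark matches on either strand to TATAAA, to the GC box GGGCGG, to the AP-1 motif TGANTCA or to the E-box CACCTG.
Krt7: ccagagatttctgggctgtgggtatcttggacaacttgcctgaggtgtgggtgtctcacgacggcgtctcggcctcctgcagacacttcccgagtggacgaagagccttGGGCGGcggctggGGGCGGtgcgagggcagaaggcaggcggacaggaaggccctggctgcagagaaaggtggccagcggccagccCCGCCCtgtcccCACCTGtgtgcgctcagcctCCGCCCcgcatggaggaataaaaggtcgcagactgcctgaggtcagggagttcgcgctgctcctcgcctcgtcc
Krt8: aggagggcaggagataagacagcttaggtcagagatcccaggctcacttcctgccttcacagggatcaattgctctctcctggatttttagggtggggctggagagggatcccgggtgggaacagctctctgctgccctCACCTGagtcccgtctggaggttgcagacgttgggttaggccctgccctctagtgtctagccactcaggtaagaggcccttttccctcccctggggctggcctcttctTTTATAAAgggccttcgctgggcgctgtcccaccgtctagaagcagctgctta
Krt18: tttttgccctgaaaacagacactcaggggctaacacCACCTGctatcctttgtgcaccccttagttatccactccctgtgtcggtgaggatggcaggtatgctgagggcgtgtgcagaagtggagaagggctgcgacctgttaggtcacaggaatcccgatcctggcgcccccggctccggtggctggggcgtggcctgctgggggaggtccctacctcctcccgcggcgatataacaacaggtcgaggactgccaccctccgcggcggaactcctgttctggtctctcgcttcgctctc
Epcam: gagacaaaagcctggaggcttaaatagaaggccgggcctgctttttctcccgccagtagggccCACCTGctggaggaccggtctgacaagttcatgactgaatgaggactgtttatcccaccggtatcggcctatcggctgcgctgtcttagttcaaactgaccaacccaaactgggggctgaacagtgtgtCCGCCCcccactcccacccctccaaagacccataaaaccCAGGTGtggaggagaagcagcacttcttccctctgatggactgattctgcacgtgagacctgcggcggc
All 4 windows held CACCTG, once in each keratin window and at 2 places in that of Epcam, and 20.2% of the 32851 RefSeq windows of this length held it. GGGCGG matched at 4 places in the Krt7 window and at 1 in that of Epcam, against 35.7% of windows with any match. TATAAA matched only in Krt8, where a forward and a reverse match overlap, and 13.6% of windows held it. TGANTCA, which 7.81% of windows held, had no match in these 4. The windows differed in base composition, with 66.3% G or C in Krt7, 58.0% in Krt8, 61.3% in Krt18 and 57.0% in Epcam, against a median of 52.7% over all windows.

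The comparison of the control cells asked how the lines differ at rest. Hepa 1-6 had less of the keratins and of Sox9 and Cd24a than AML12, and more Epcam. All 7 measured genes passed the threshold (limma, adjusted p below 0.05 over 16549 genes), 1 higher and 6 lower in Hepa 1-6, where 61.9% of all genes passed, 32.1% higher and 29.8% lower. The median difference over the 7 genes was -1.84, against 0.04 over all genes.

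Krt19, the type I keratin of bile duct cells, differed most. Its level was -4.09 and -4.22 on the Hepa 1-6 control arrays and 4.09 and 4.05 on the AML12 control arrays, a difference of -8.22 ± 0.10 (SE, adjusted p = 8.2e-10). This corresponds to a 299-fold lower ratio, the 7th largest deficit of all genes in Hepa 1-6. Its ratio in Hepa 1-6 controls was among the lowest 2.24% of all ratios there. That describes ratios and not amounts, but the ratio can lie near the detection floor, and the size of the fold is uncertain.

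Krt7, the type II keratin of bile ducts, stood at -1.06 and -1.20 in Hepa 1-6 controls and at 2.87 and 2.80 in AML12 controls. The difference of -3.97 ± 0.08 (adjusted p = 5.7e-09) is a 15.6-fold lower ratio, and both features of the gene showed it, at -4.27 and -3.67. The lines thus lay on either side of the reference pool for both bile duct keratins.

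The keratins that hepatocytes share with bile ducts stayed above the pool in both lines. Krt8 stood at 0.89 and 0.79 in Hepa 1-6 controls and at 3.17 on both AML12 control arrays (difference -2.33 ± 0.06, adjusted p = 1.5e-08). Its filament partner Krt18 stood at 1.96 and 2.16 in Hepa 1-6 controls and at 2.64 and 2.42 in AML12 controls, and differed least (-0.47 ± 0.12, adjusted p = 0.0074). The Krt18 call was lost without the first AML12 control array (-0.37, adjusted p = 0.055) or the first Hepa 1-6 control array (-0.37, adjusted p = 0.054).

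Sox9, the transcription factor gene, stood at 0.95 and 0.92 in Hepa 1-6 controls, against 2.46 and 2.31 in AML12 controls. The difference was -1.46 ± 0.10 (adjusted p = 5.0e-06), and its 13 features lay between -1.72 and -0.58, each past the threshold. The deposited table gives no probe names, so several Sox9 features may be repeated spots of 1 probe, and their number is not a number of independent measurements. Cd24a, which encodes a small glycosylphosphatidylinositol-anchored glycoprotein, stood at 0.97 on both Hepa 1-6 control arrays and at 2.84 and 2.78 in AML12 controls (difference -1.84 ± 0.06, adjusted p = 8.6e-08).

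Epcam, the gene of an epithelial adhesion molecule, ran the other way. It stood at -2.55 and -2.41 in Hepa 1-6 controls and at -4.92 and -4.75 in AML12 controls, a difference of 2.36 ± 0.12 (adjusted p = 6.6e-07) and a 5.12-fold higher ratio in Hepa 1-6. Both lines lay below the pool, and the Epcam ratio in AML12 controls was among the lowest 1.09% of all ratios there, so this fold can also involve the detection floor.

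**Figure D1:**
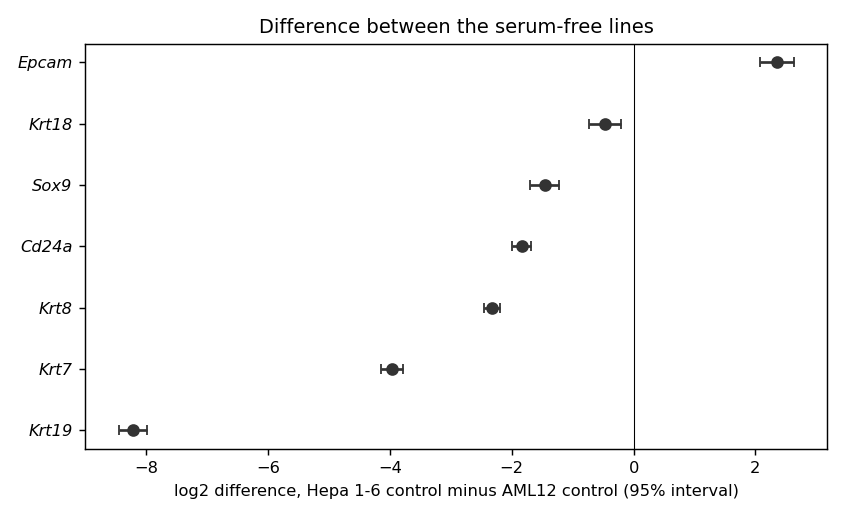
Difference in log2 ratio (horizontal axis) between serum-free Hepa 1-6 and AML12 cells, Hepa 1-6 minus AML12, for the 7 measured genes (rows). Points are differences of the means of 2 arrays and bars are 95% intervals from limma. Epcam lies at 2.36, right of 0, and the other genes lie between -8.22 and -0.47.

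Actinomycin D was used to follow transcripts while transcription was blocked, and each treatment is set against the control of the same line. In Hepa 1-6, Krt7, Krt18, Sox9 and Epcam rose relative to the other transcripts on the array and Krt19 and Cd24a fell. In AML12, Sox9 fell strongly, Krt8, Krt19 and Cd24a fell less, and no gene of the set rose. The counts were 4 higher and 2 lower of 7 in Hepa 1-6, where 50.9% of all genes passed, 27.9% higher and 23% lower. They were 0 higher and 4 lower of 7 in AML12, where 53.6% passed, 28% higher and 25.5% lower. The median difference over the 7 genes was 0.48 in Hepa 1-6 and -0.37 in AML12, against 0.07 and 0.04 over all genes. Each array was normalized by the authors and no amount per cell was measured, so a rise means a larger share of the RNA. Median centring of each array would add 0.108 to every AML12 difference and 0.036 to every Hepa 1-6 difference.

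The responses of the lines differed most for Sox9. On the actinomycin D arrays its level was 1.35 and 1.47 in Hepa 1-6, against 0.95 and 0.92 in controls. In AML12 it was 0.11 and -0.06 with actinomycin D, against 2.46 and 2.31 in controls. The AML12 actinomycin D arrays were the lowest of all 12 for this gene, below every Hepa 1-6 array, although AML12 controls were the highest.

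In AML12 the change in Sox9 was -2.36 ± 0.10 (adjusted p = 1.3e-06), which left 19.4% of the control ratio, the 133rd largest fall among all genes. All 13 features fell. Of these, 10 fell by 2.40 to 2.60 and may be repeated spots of 1 probe, and the others fell by 2.83, 2.19 and 0.82. In Hepa 1-6 the change was 0.48 ± 0.10 (adjusted p = 0.0056), but the features were split. Of the 12 features under the RefSeq accession, 11 passed and the other changed by 0.21 (adjusted p = 0.153), while the 1 feature under a separate EST accession changed by -0.41 (adjusted p = 0.208). With 1 mean per accession, an alternative chosen after seeing the data, the Hepa 1-6 change was 0.07 (adjusted p = 0.73), and with only the feature of highest mean ratio it was 0.21 (adjusted p = 0.16). The difference between the lines' responses, Hepa 1-6 minus AML12, was 2.84 ± 0.15 (adjusted p = 2.5e-05), with the features, which may repeat a probe, between 1.27 and 3.20. It was 2.65 (adjusted p = 0.00016) with 1 mean per accession.

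**Figure D2:**
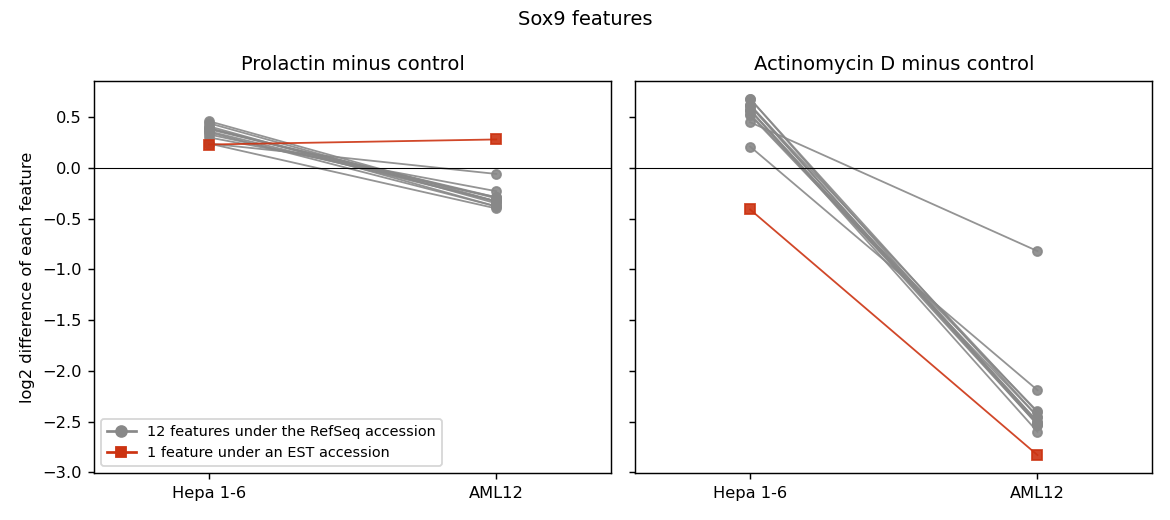
Change in log2 ratio of each of the 13 Sox9 features (vertical axis) in Hepa 1-6 and AML12 (horizontal axis), for prolactin (left) and actinomycin D (right). Each line joins the same feature in both cell lines. With actinomycin D, every feature is lower in AML12 than in Hepa 1-6, and the EST feature (red squares) is the lowest in both.

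The type II keratins responded differently in the lines, and the gap between the lines was smaller with actinomycin D than in controls. Krt7 stood at -0.07 and -0.27 in Hepa 1-6 with actinomycin D, against -1.06 and -1.20 in controls. It rose by 0.96 ± 0.08 (adjusted p = 4.2e-05), 1.94-fold, and both features passed, at 0.84 and 1.08. In AML12 it stood at 2.86 and 2.84 with actinomycin D and at 2.87 and 2.80 in controls, which overlap. The AML12 difference was 0.01 ± 0.08 (adjusted p = 0.89; 95% interval -0.17 to 0.20), but -0.24 (adjusted p = 0.032) after quantile normalization.

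Krt8 gave the opposite picture, with a change in AML12. Its level there was 2.54 and 2.49 with actinomycin D, against 3.17 on both control arrays. The change was -0.65 ± 0.06 (adjusted p = 4.4e-05), and both features passed, at -0.74 and -0.57. In Hepa 1-6 it stood at 0.98 and 0.90 with actinomycin D and at 0.89 and 0.79 in controls, a difference of 0.09 ± 0.06 (adjusted p = 0.21; 95% interval -0.04 to 0.23), with 1 of its 2 features past the threshold at 0.18. The lines' responses differed for both type II keratins, by 0.94 ± 0.11 for Krt7 (adjusted p = 0.00077) and 0.75 ± 0.08 for Krt8 (adjusted p = 0.00057).

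Of the type I keratins, Krt18 rose in Hepa 1-6. It stood at 2.73 and 2.65 there with actinomycin D, against 1.96 and 2.16 in controls (0.63 ± 0.12, adjusted p = 0.0025). In AML12 it stood at 2.50 and 2.23 with actinomycin D and at 2.64 and 2.42 in controls, which overlap (-0.17 ± 0.12, adjusted p = 0.27). After quantile normalization the AML12 change was -0.35 (adjusted p = 0.019). The responses differed by 0.80 ± 0.16 (adjusted p = 0.0090), Hepa 1-6 minus AML12.

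Krt19 passed the threshold as a fall in both lines, but its Hepa 1-6 ratios can lie near the detection floor, where differences can be compressed. It stood at -4.52 and -4.62 in Hepa 1-6 with actinomycin D, against -4.09 and -4.22 in controls, and changed by -0.42 ± 0.10 (adjusted p = 0.0087). In AML12 it stood at 3.75 and 3.49 with actinomycin D, against 4.09 and 4.05 in controls, and changed by -0.45 ± 0.10 (adjusted p = 0.0055). The difference between the responses was 0.03 ± 0.14 (adjusted p = 0.89; 95% interval -0.29 to 0.35), which was -0.04 after median centring and 0.53 (adjusted p = 0.011) after quantile normalization. The Hepa 1-6 fall was not past the threshold without the first control array (-0.35, adjusted p = 0.059) or the second actinomycin D array (-0.37, adjusted p = 0.050).

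For the surface protein genes, the changes were smaller than that of Sox9 in AML12. Epcam stood at -1.96 and -1.87 in Hepa 1-6 with actinomycin D, against -2.55 and -2.41 in controls, and rose by 0.56 ± 0.12 (adjusted p = 0.0048). In AML12 it stood at -4.75 and -4.88 with actinomycin D and at -4.92 and -4.75 in controls (0.02 ± 0.12, adjusted p = 0.92, and -0.12 after quantile normalization). The responses differed by 0.55 ± 0.17 (adjusted p = 0.041). That call was lost after median centring (0.47, adjusted p = 0.064) and without any array but the AML12 prolactin arrays (0.46 to 0.63, adjusted p up to 0.13).

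Cd24a stood at 0.84 and 0.73 in Hepa 1-6 with actinomycin D, against 0.97 on both control arrays, and changed by -0.18 ± 0.06 (adjusted p = 0.043). The call was lost under 16 of 25 alternatives, among them median centring (-0.15, adjusted p = 0.097). In AML12 it stood at 2.42 and 2.46 with actinomycin D, against 2.84 and 2.78 in controls, and changed by -0.37 ± 0.06 (adjusted p = 0.0017). The difference between the responses was 0.18 ± 0.09 (adjusted p = 0.17; 95% interval -0.03 to 0.39). In all, the response differed between the lines for 5 of the 7 genes, each with the higher value in Hepa 1-6, where 30% of all genes differed, 17.2% in that direction and 12.8% in the other.

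**Figure D3:**
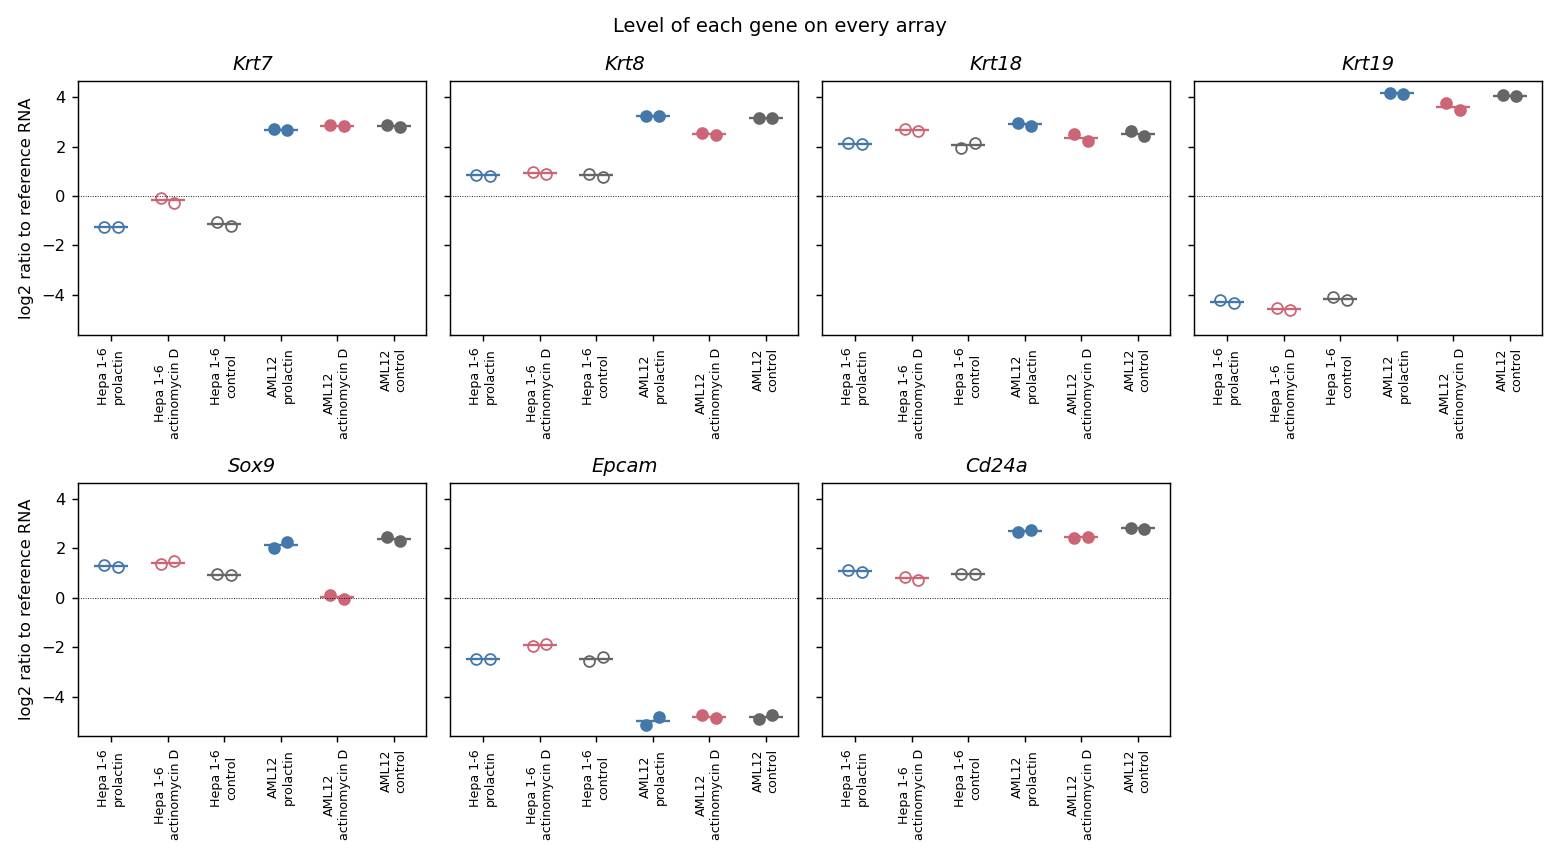
Log2 ratio to the reference RNA (vertical axis) on every array for the 7 measured genes (panels), by line and treatment (horizontal axis). Points are arrays, 2 per group, open for Hepa 1-6 and filled for AML12, and bars are group means. The AML12 arrays stand above all Hepa 1-6 arrays for Krt7, Krt8, Krt19 and Cd24a and below them for Epcam, while Sox9 in AML12 with actinomycin D lies at 0.11 and -0.06.

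Prolactin, a pituitary hormone that signals through JAK2 and STAT5, was compared with the same controls as actinomycin D. None of the 7 genes passed the threshold in either line. In limma the count was 0 of 7 in Hepa 1-6, where 0.0363% of all genes passed (0.0302% higher and 0.00604% lower). It was 0 of 7 in AML12, where 1.27% passed (0.719% higher and 0.55% lower). At an unadjusted p under 0.05 the counts were 1 of 7 in Hepa 1-6 and 2 of 7 in AML12, against 8.21% and 16.9% of all genes. The difference between the lines' responses did not pass for any of the 7 genes either (2 of 7 at an unadjusted p under 0.05, against 10.9% of all genes), where 0.121% of all genes did (0.0544% higher and 0.0665% lower in Hepa 1-6).

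The prolactin minus control difference of Sox9 was the highest of the 7 genes in Hepa 1-6 and the lowest in AML12. Arrays of the groups failed to overlap for 43.2% of all genes in Hepa 1-6 and 48.8% in AML12. It stood at 1.32 and 1.24 in Hepa 1-6 with prolactin, against 0.95 and 0.92 in controls, without overlap (0.35 ± 0.10, adjusted p = 0.45; 95% interval 0.11 to 0.59). In AML12 it stood at 2.01 and 2.25 with prolactin and at 2.46 and 2.31 in controls (-0.26 ± 0.10, adjusted p = 0.26; 95% interval -0.50 to -0.02). In AML12 the EST feature had a positive difference of 0.28 and the features under the RefSeq accession, which may repeat a probe, a negative one. With 1 mean per accession the AML12 difference was -0.01 (adjusted p = 0.98) and the Hepa 1-6 difference 0.29 (adjusted p = 0.70). The responses differed by 0.61 ± 0.15 (adjusted p = 0.21), or by 0.30 (adjusted p = 0.68) with 1 mean per accession.

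In AML12, the highest prolactin minus control difference of the set was that of Krt18. Its level was 2.96 and 2.84 with prolactin and 2.64 and 2.42 in controls, without overlap (0.37 ± 0.12, adjusted p = 0.17; 95% interval 0.10 to 0.64). In Hepa 1-6 it stood at 2.13 and 2.12 with prolactin, between the control values of 1.96 and 2.16 (0.07 ± 0.12, adjusted p = 0.94). The remaining genes differed by at most 0.15 in size. For Krt19 the difference was -0.13 in Hepa 1-6 (95% interval -0.36 to 0.09) and 0.10 in AML12 (-0.13 to 0.33). Krt7 had -0.12 in Hepa 1-6 (-0.30 to 0.07) and -0.15 in AML12 (-0.33 to 0.03), and Krt8 had -0.01 (-0.14 to 0.13) and 0.08 (-0.05 to 0.21). Cd24a had 0.12 in Hepa 1-6 (-0.02 to 0.27) and -0.09 in AML12 (-0.24 to 0.05), and Epcam had -0.01 (-0.28 to 0.26) and -0.15 (-0.42 to 0.12).

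**Figure D4:**
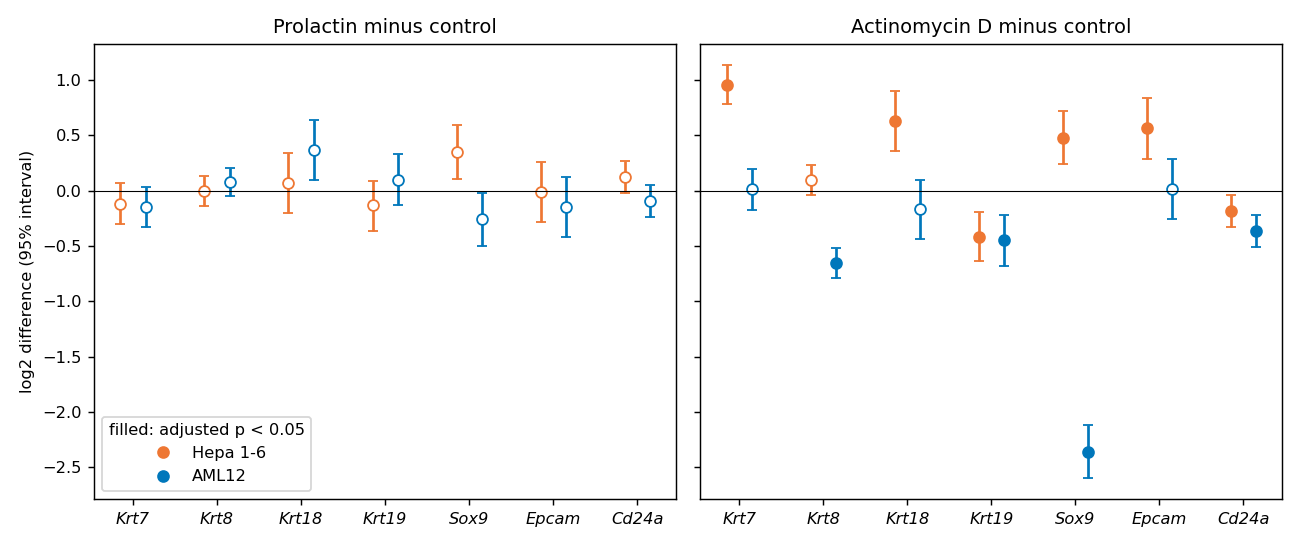
Log2 difference between treated and control arrays of the same line (vertical axis) for the 7 measured genes (horizontal axis), with prolactin on the left and actinomycin D on the right. Points are differences of means of 2 arrays with 95% intervals from limma, orange for Hepa 1-6 and blue for AML12, filled where the adjusted p is under 0.05. No point is filled for prolactin, and the lowest point is Sox9 in AML12 with actinomycin D, at -2.36.

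The order of the 6 groups was largely set by line. For Krt7, Krt8, Krt19 and Cd24a the 3 Hepa 1-6 groups were the lowest and the 3 AML12 groups the highest, and for Epcam the reverse held. Krt18 spanned 0.84 between its lowest and highest group mean, with Hepa 1-6 actinomycin D between AML12 control and AML12 prolactin. Krt19 spanned 8.74, Krt7 4.10, Epcam 3.07, Krt8 2.41, Sox9 2.36 and Cd24a 2.02. The pooled spread within groups was 0.04 to 0.12 (SD over 2 arrays a group, 6 groups). No neighbouring groups in the order overlapped for 2 of the 7 genes, Sox9 and Cd24a, and for 6.82% of all genes. The Hepa 1-6 prolactin and control arrays overlapped for Krt8, Krt18, Krt19 and Epcam, the AML12 actinomycin D and control arrays for Krt7, Krt18 and Epcam, and the AML12 prolactin and control arrays for Epcam.

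The genes most like each member were those with the highest Pearson r of log2 ratios over the 12 arrays, for members whose group means spanned at least 1. They were Galnt10, Pxmp4 and Onecut1 for Krt7 (r = 0.999 each), and Usp43 (0.999), Adamts15 (0.998) and Mtcl1 (0.998) for Krt8. For Krt19 they were Phpt1 (1.000), Wwc2 (0.999) and the mesothelin gene Msln (0.999). For Epcam they were the mucin gene Muc16 (0.999), Mmp10 (0.998) and Ramp3 (0.998), and for Cd24a Gclc (0.998), Ctdspl (0.998) and Igf1 (0.997). For Sox9 they were Zfp27 (0.970), Fbxo28 (0.965) and Ppp1r13b (0.958), each lower in AML12 with actinomycin D than in AML12 controls. The 12 points share 2 lines, so apart from Sox9 these values mostly describe the step between the lines.

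The counts of the following lists are to be read against all genes. Of these, 32.1% were higher and 29.8% lower in Hepa 1-6 controls, 27.9% rose and 23% fell with actinomycin D in Hepa 1-6, and 28% rose and 25.5% fell in AML12. The response differed for 30%, with 17.2% higher and 12.8% lower in Hepa 1-6. Of 20 other keratin genes tested, 5 were higher and 3 lower in Hepa 1-6 than in AML12 controls. Krt5, a basal-layer keratin gene, was higher by 2.78 ± 0.15 (adjusted p = 1.0e-06), and Krt20, an intestinal and urothelial keratin gene, differed by -1.24 ± 0.14 (adjusted p = 9.6e-05). With actinomycin D, 12 rose and 0 fell in Hepa 1-6, and 8 rose and 2 fell in AML12. In Hepa 1-6 Krt79 rose by 2.09 ± 0.27 and Krt17, a stress-induced keratin gene, by 1.02 ± 0.06 (adjusted p = 0.00041 and 1.1e-05). In AML12 Krt23 rose by 2.33 ± 0.52 (adjusted p = 0.0057) and Krt20 changed by -0.71 ± 0.14 (adjusted p = 0.0036). The median of the 20 genes was 0.49 in Hepa 1-6 and 0.35 in AML12, against 0.07 and 0.04 over all genes. The response was higher in Hepa 1-6 for 7 of the 20, among them Krt79 (2.35 ± 0.38), and lower for 2, Krt23 (-2.52 ± 0.73) and Krt14 (-0.41 ± 0.07).

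Products of many desmosome and keratin-partner genes anchor or bind keratin filaments. Of 18 tested, 7 were higher and 10 lower in Hepa 1-6 controls than in AML12 controls. The plakophilin gene Pkp3 was higher by 3.05 ± 0.12, and its relative Pkp2 differed by -1.80 ± 0.08 (adjusted p = 1.6e-07 and 2.9e-07). With actinomycin D, 7 rose and 3 fell in Hepa 1-6, and 6 rose and 7 fell in AML12. The periplakin gene Ppl changed by -1.53 ± 0.07 in Hepa 1-6 and -2.04 ± 0.07 in AML12, and Pkp2 rose by 1.67 ± 0.08 and 0.72 ± 0.08. The response was higher in Hepa 1-6 for 10 of the 18 and lower for 0.

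Many genes of the epithelial junction list encode proteins that join neighbouring cells, while Grhl2 and Pard6b do not. Of 26 tested, 5 were higher and 16 lower than in AML12 controls. Cdh1, which encodes E-cadherin, stood at -2.07 and -2.04 in Hepa 1-6 controls and at 5.66 and 5.55 in AML12 controls, a difference of -7.66 ± 0.16 (adjusted p = 7.0e-09). The claudin gene Cldn2 differed by -4.90 ± 0.15, whereas its relative Cldn1 was higher by 1.81 ± 0.22. Grhl2 and Pard6b were also higher, by 2.05 ± 0.69 and 1.04 ± 0.14. With actinomycin D, 4 rose and 4 fell in Hepa 1-6 and 8 rose and 8 fell in AML12. The response was higher in Hepa 1-6 for 8, among them the connexin gene Gjb2 (1.78 ± 0.31), and lower for 6, among them the tight junction genes Tjp3 (-2.40 ± 0.14) and Ocln (-1.49 ± 0.23).

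Of 38 other biliary and liver progenitor genes, 10 were higher and 20 lower in Hepa 1-6 controls. Lgr5, a Wnt-responsive progenitor gene, was higher by 6.15 ± 0.21 (adjusted p = 8.4e-08), the trefoil factor gene Tff3 by 5.24 ± 0.14 and the claudin gene Cldn3 by 4.81 ± 0.10. Foxj1, a ciliogenesis factor gene, differed by -5.41 ± 0.33, the receptor gene Fgfr2 by -3.71 ± 0.07 and Onecut2 by -3.24 ± 0.07. With actinomycin D, 14 rose and 9 fell in Hepa 1-6 and 14 rose and 11 fell in AML12, where the protease gene Mmp7 rose by 4.60 ± 0.30 (adjusted p = 9.4e-06). The response was higher in Hepa 1-6 for 8 genes, among them Onecut2 (1.74 ± 0.10), and lower for 7, among them Mmp7 (-4.00 ± 0.43) and the ion transporter gene Slc12a2 (-1.42 ± 0.14).

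Notch signalling directs progenitors to a bile duct fate, and Sox9 is among its targets. Of 25 Notch pathway genes tested, 6 were higher and 10 lower in Hepa 1-6 controls. The target genes Nrarp and Hey1 differed by -4.89 ± 0.34 and -3.90 ± 0.24, and the ligand gene Jag2 by -4.31 ± 0.19. In the other direction, Rbpj was higher by 1.29 ± 0.11, Mfng by 1.25 ± 0.07 and Maml1 by 0.71 ± 0.06. With actinomycin D, 11 rose and 2 fell in Hepa 1-6 and 2 rose and 8 fell in AML12. The target gene Hes1 changed by -1.88 ± 0.10 in Hepa 1-6 and by -3.50 ± 0.10 in AML12, and its responses differed by 1.62 ± 0.14 (adjusted p = 0.00018). Dll1, a ligand gene, rose by 0.95 ± 0.10 in Hepa 1-6 and changed by -1.49 ± 0.10 in AML12. Notch3, a receptor gene, rose by 2.23 ± 0.15 in Hepa 1-6 and by 1.74 ± 0.15 in AML12. The response was higher in Hepa 1-6 for 9 of the 25 and lower for 0. With prolactin, limma called 0 genes of these 5 lists in either line. At an unadjusted p under 0.05, Hepa 1-6 had 2 of 20 other keratin genes and 1 of 18 keratin partners. It also had 3 of 26 junction, 3 of 38 biliary and 2 of 25 Notch pathway genes, against 8.21% of all genes. AML12 had 2 of 20 other keratin genes, 5 of 18 keratin partners and 4 of 26 junction genes. It also had 4 of 38 biliary and 7 of 25 Notch pathway genes, against 16.9% of all genes.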

How the data were processed

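The authors deposited normalized log ratios of sample (Cy5) over reference RNA (Cy3) for 12 two-colour Agilent arrays. The submitters' processing notes name Agilent Feature Extraction as the software. No source used here states its settings, the dye normalization or the base of the logarithm. The deposited values were taken as log10, the convention of that software, and multiplied by 3.32 to give log2. Under base 2 every size would shrink by that factor and no call would change, except under the minimum fold. Exact zeros were treated as no ratio.

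Features holding a ratio on every array and 1 gene symbol (28519), updated by Entrez identifier, were averaged to 16549 genes. One linear model with a mean per group was fitted with limma 3.58.1 (R 4.3.3; lmFit, contrasts.fit, eBayes; 6 residual and 1.84 prior degrees of freedom), two-sided, with Benjamini-Hochberg adjustment over all genes and a threshold of 0.05. P-values rest on 1 estimate of spread per gene, pooled over the 2 arrays of each of the 6 groups and moderated by the prior. On simulated data with 200 shifted genes of 16549 in the actinomycin D comparison of AML12, 80% of shifts of 1 and 91% of shifts of 2 (log2) were recovered. Among the genes not shifted, 9 were called. In the data 53.6% of genes passed in this comparison, far more than were shifted in the simulation, so these rates need not hold there. Smaller shifts and the prolactin comparisons were not simulated, so recovery there is not known either. Tables used Python 3.11.15, pandas 2.3.3 and numpy 2.4.6.

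The members, the lists and the naming rule were chosen with earlier results of these data known. All members were named, and from each list up to 3 genes per direction among those past the threshold. The lists were other keratins, keratin partners and desmosomes, epithelial junctions, other biliary and progenitor genes, the Notch pathway, and markers of hepatocytes, hepatoblasts, mesenchymal, leukocyte and endothelial cells. Alternatives covered scaling, zeros, filters, features per gene, prior, replicate block, arrays fitted, a minimum fold and each array left out.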

Additional observations from a re-analysis of the deposited data

Results flagged for a closer look

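The response to actinomycin D differed between the lines for 5 of the 7 genes in the test of the difference itself, Hepa 1-6 minus AML12 (limma, adjusted over all genes). Over all genes, 30% differed, 17.2% with the higher value in Hepa 1-6, as for these 5. The difference was 2.84 for Sox9, which was higher than its controls in Hepa 1-6 and lower in AML12. The call of the Sox9 rise in Hepa 1-6 was lost under 4 of 25 alternatives, among them 1 mean per accession (0.07, adjusted p = 0.73). The difference between responses was 0.94 for Krt7, 0.80 for Krt18 and 0.75 for Krt8. For Epcam it was 0.55, with an adjusted p of 0.041, and the call was lost under 14 of 23 alternatives.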

How the results depend on the processing

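Of 49 differences (7 genes in 7 comparisons), 22 passed the threshold, and the gene-level value of none of these changed sign under any alternative run. The test of every feature by itself kept the mean over features as its value, so it could show no sign change. Single features could differ in sign from their gene. The Sox9 EST feature did so with actinomycin D in Hepa 1-6, at -0.41 against 0.48 for the gene. The minimum fold of 2 left 0 of the 6 calls for actinomycin D in Hepa 1-6, 1 of 4 in AML12 and 1 of 5 for the difference between those responses. Over all 16549 genes, it called 485, 852 and 228 in these comparisons, against 8417, 8863 and 4972 in the main fit. The other counts of members called stayed within 1.5 times. Calls of Krt7, Krt8, Krt19, Sox9, Epcam and Cd24a between the control groups, and of Sox9 for actinomycin D in AML12 and for the difference between the lines' responses to it, held under every alternative run for them. Sign changes of the gene-level value were seen in 9 of the 27 differences that did not pass. Quantile normalization gave 0.01 for Epcam with prolactin in AML12 and 0.03 in Hepa 1-6, and with actinomycin D in AML12 -0.24 for Krt7 and -0.12 for Epcam. Median centring gave -0.04 for the Krt19 difference between actinomycin D responses. Leaving out 1 array gave -0.32 to 0.02 for Epcam with prolactin in AML12 and -0.08 to 0.06 in Hepa 1-6, -0.06 to 0.04 for Krt8 and -0.03 to 0.17 for Krt18 with prolactin in Hepa 1-6, and, with actinomycin D in AML12, -0.02 to 0.05 for Krt7 and -0.07 to 0.10 for Epcam. For the difference between responses it gave -0.03 to 0.10 for Krt7 and -0.03 to 0.30 for Epcam with prolactin and -0.10 to 0.17 for Krt19 with actinomycin D. The cause of these changes was not tested. Same-numbered arrays are not known to share a source, and the correlation of their deviations between groups of a line was 0.0085 to 0.159. With the replicate block the counts of members called were 5 of 7 for actinomycin D in Hepa 1-6 and 4 of 7 for the difference between responses, as Cd24a (-0.18, adjusted p = 0.058) and Epcam (0.55, adjusted p = 0.053) were lost. The block changed no other member call. Of all 16549 genes, 8272 and 4744 were called in these 2 comparisons with the block, against 8417 and 4972 without it. Leaving out the lowest 20% of mean ratios removed Epcam. Signal over background was not used, so the low ratios of Krt19 in Hepa 1-6 and Epcam in AML12 are the least certain in size.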

Other observations

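Markers of other cells were tested in the same model. Over all genes, 32.1% were higher and 29.8% lower in Hepa 1-6 controls than in AML12 controls. Of 22 hepatocyte markers, 4 were higher and 12 lower, with the apolipoprotein genes Apoh at -7.16 ± 0.33 and Apoa2 at 3.74 ± 1.07. Of 5 hepatoblast markers, 2 were higher and 1 lower, with the fetal albumin relative Afp at 5.82 ± 0.08 and Peg3 at -6.13 ± 0.21. Of 20 mesenchymal and stellate markers, 6 were higher and 2 lower, and 12 in Hepa 1-6 controls and 11 in AML12 controls had mean log2 ratios below -3. Snai2, which encodes a repressor of epithelial genes, differed by -5.65 ± 0.15 and its relative Snai1 by 2.86 ± 0.06, while the intermediate filament gene Vim differed by -2.79 ± 0.14 and the decorin gene Dcn by 7.75 ± 0.14. Of 11 leukocyte markers 1 was higher and 3 lower, and of 8 endothelial markers 1 was higher and 2 lower. Among the hepatocyte markers, 1 of 22 passed with prolactin in AML12, where 1.27% of all genes passed. This was Tat, higher by 0.90 ± 0.11 (limma, adjusted p = 0.017). In Hepa 1-6, 0 of 22 passed with prolactin. With actinomycin D, the mesenchymal markers had 4 higher and 3 lower in Hepa 1-6 and 4 higher and 4 lower in AML12, with Vim at -0.91 ± 0.14 in AML12. The part of these cells' markers in the keratin results was not tested.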
